A study of Mus musculus with 30 samples.

Results

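The 7 genes described here carry sugar into liver cells, break it down by glycolysis and fructolysis, or sense it: *Slc2a2*, *Gckr*, *Pfkl*, *Pfkfb1*, *Pklr*, *Khk* and *Mlxipl*. They were chosen by name from this pathway, and all 7 were among the 14173 genes of the count table and passed the filter on low counts in every comparison. Counts came from 3′ end sequencing of whole liver RNA, in which each read marks the end of a transcript, so a gene's count is set by its number of transcripts and not by their length. Male C57BL6/J mice, singly housed, ate 1 of 5 diets for 12 weeks from 12 weeks of age and were killed at 6 months of age after a 4 h fast, and each diet had 6 livers. The Cas-20% diet held 20% casein, with 0.57 g methionine and 0.41 g cystine per 100 g, and the Cas-5% diet held 5% casein, with 0.15 g and 0.1 g. The Soy-20% diet held 20% soy protein, with 0.22 g of each of these sulfur amino acids (SAA), and the Soy-20% + SAA diet was the same protein with methionine and cystine brought to 0.58 g and 0.41 g. The Soy-10% diet was labelled as 11.5% soy protein, with 0.13 g of each. In the restricted diets the protein taken out was replaced by corn starch and maltodextrin, while sucrose was the same in all diets, so protein, SAA and starch differed together between a restricted diet and its control and cannot be told apart.

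In the hepatocyte, glucose and fructose enter through GLUT2, the product of *Slc2a2*. The protein of *Gckr* is a nuclear regulatory protein of the hepatocyte that restrains glucose use and answers to fructose phosphates. Phosphofructokinase (*Pfkl* is its liver form) commits the sugar to glycolysis and is switched on by fructose 2,6-bisphosphate, which the bifunctional enzyme of *Pfkfb1* both makes and removes. Pyruvate kinase, from *Pklr*, closes the pathway. Fructose bypasses phosphofructokinase because ketohexokinase, from *Khk*, phosphorylates it directly. *Mlxipl* encodes ChREBP, a transcription factor that sugar phosphates activate and that binds, with its partner MLX, a paired E box called the carbohydrate response element. *Pklr* is the textbook target of ChREBP, and the fatty acid synthesis genes are others.

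The promoter windows below, from 250 bases before to 50 bases after a transcription start in RefSeq (GRCm38.p6), are shown for *Pklr* and *Khk*, the pair of genes that varied together most closely between livers, for *Mlxipl* itself, and for *Pfkfb1*, the gene with the largest difference between diets. They were searched for the carbohydrate response element, written as CACGNG, 5 bases of any kind and CNCGTG, and for the single E box CACGTG, both of which read the same on either strand; a response element with CACGTG at either end also counts as an E box. Capitals mark the matches.
*Pklr*, second of its listed starts, chr3:89136373-89136672, + strand: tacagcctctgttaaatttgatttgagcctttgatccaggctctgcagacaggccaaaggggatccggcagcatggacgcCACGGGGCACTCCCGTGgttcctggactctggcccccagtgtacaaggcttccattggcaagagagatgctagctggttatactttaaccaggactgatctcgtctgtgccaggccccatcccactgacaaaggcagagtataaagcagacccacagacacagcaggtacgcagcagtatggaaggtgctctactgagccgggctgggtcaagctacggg
*Khk*, chr5:30921309-30921608, + strand: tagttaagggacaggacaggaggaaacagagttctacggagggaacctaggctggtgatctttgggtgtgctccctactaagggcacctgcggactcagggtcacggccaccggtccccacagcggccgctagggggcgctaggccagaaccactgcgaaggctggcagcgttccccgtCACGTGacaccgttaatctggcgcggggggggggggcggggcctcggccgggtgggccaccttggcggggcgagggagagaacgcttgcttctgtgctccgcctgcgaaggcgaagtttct
*Mlxipl*, upstream of its listed starts, chr5:135089640-135089939, + strand: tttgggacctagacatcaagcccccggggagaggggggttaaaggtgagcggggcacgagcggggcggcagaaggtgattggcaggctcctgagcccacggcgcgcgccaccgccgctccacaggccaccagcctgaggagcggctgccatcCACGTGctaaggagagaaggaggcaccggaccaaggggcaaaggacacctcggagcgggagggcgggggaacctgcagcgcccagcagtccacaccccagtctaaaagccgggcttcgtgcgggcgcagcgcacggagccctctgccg
*Pfkfb1*, the listed start nearest to the gene's annotated start, chrX:150587993-150588292, + strand: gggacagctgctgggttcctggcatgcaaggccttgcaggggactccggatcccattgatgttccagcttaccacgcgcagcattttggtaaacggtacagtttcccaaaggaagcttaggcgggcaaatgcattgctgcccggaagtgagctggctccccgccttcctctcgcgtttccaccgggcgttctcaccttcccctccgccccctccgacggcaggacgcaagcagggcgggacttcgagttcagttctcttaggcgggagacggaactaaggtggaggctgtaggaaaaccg
The *Pklr* window held the response element 170 bases before the start, a motif that 15 of 32851 RefSeq promoter windows of the same length held (0.046%). Single E boxes lay 71 bases before the start of *Khk* and 98 bases before the upstream start of *Mlxipl*, a motif that 7.15% of the windows held. The other listed start of *Pklr* and the other listed start of *Mlxipl* held neither motif. None of the 4 listed starts of *Pfkfb1*, nor the windows of *Slc2a2*, *Gckr* and *Pfkl*, held either string of letters. These matches are descriptions of sequence and say nothing of binding in these livers. Counts at the 3′ end add up all starts of a gene, so the liver and red cell starts of *Pklr*, the alpha and beta forms of ChREBP and the splice forms of ketohexokinase were each measured as 1 value.

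The genes lay on chromosome 3 (*Slc2a2*, 28697903 to 28731359, and *Pklr*, 89136142 to 89146784), chromosome 5 (*Khk*, 30921431 to 30931248, *Gckr*, 31297443 to 31327314, and *Mlxipl*, 135089890 to 135138382), chromosome 10 (*Pfkl*, 77986947 to 78010083) and chromosome X (*Pfkfb1*, 150588229 to 150643878), in GRCm38. *Khk* and *Gckr* lie 366.2 kb apart. The last base of *Slc2a2* is covered by the antisense gene *1700112D23Rik* and that of *Pklr* by *Hcn3* on the other strand. Neither of these 2 genes was in the table, and how strand was used in counting is not given in the sources used here.

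The 30 libraries held 7694015 to 14565542 counts each (median 10803734). Values per liver are counts divided by the size factor the authors deposited. Before any comparison, 5 libraries stand apart. In Soy-20% + SAA livers 3 to 6, relative counts rose with the GC content of the transcript's last 200 nt by 0.058 to 0.201 log2 units per 10 percentage points of GC, against -0.059 to 0.023 in the other 26 livers. The GC content of these 200 nt in the 7 genes was lowest in *Slc2a2* (32.5%) and highest in *Khk* (57.0%), with *Pfkfb1* at 43.5%, *Gckr* at 44.5%, *Pfkl* and *Mlxipl* at 49.5% and *Pklr* at 52.5%. Differences of the 7 genes between this diet and Soy-10% are therefore given with and without these 4 livers. Soy-10% liver 4 carried RNA of the exocrine pancreas, with 5931 normalized counts over 5 acinar genes against at most 5.75 in any other liver, and every call of the 7 genes described below held with this liver left out. The sum of the 8 hepatocyte markers was 746159 to 971403 normalized counts in the 30 livers, and its range overlapped between all diets. *Alb* gave the largest part of this sum, so the sum does not speak for each marker. *Alb* was at 430359 to 490920 in Cas-20% and 502753 to 661222 in Cas-5%. *Cps1* went the other way, at 8139 to 13501 and 3149 to 5683.

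*Pfkfb1*, the bifunctional enzyme that sets fructose 2,6-bisphosphate, had the largest difference of the 7 genes, and it was lower in Cas-5% than in Cas-20% and in Soy-10% than in Soy-20% + SAA. Its normalized count in the Cas-20% livers was 254.8 at the lowest, 304.6 at the median and 367.1 at the highest, and in the Cas-5% livers 123.9, 164.8 and 193.6. All 6 Cas-5% livers lay below all 6 Cas-20% livers. The means were 163.0 ± 25.4 (SD, n = 6) in Cas-5% and 310.9 ± 45.0 (SD, n = 6) in Cas-20%, a 1.88-fold lower level (log2 fold change -0.91, SE 0.11, adjusted p = 1.9e-05, edgeR's quasi-likelihood test with Benjamini-Hochberg adjustment over all genes tested, as for every adjusted p below unless another tool is named). In whole liver, fewer cells that express a gene and less RNA per cell cannot be told apart. In the soy livers, the count ran from 194.5 over a median of 254.4 to 338.4 in Soy-20% + SAA, from 190.8 over 230.4 to 313.5 in Soy-20%, and from 160.4 over 180.2 to 207.2 in Soy-10%. Of the 6 Soy-10% livers, 5 lay below every Soy-20% + SAA liver, and 5 below every Soy-20% liver. Soy-10% was 1.46-fold lower than Soy-20% + SAA (log2 fold change -0.54, SE 0.12, adjusted p = 0.011). With only Soy-20% + SAA livers 1 and 2 as the control the difference was -0.38 (adjusted p = 0.098), and with the library's GC slope as a covariate it was -0.39 (adjusted p = 0.16). Against Soy-20%, which none of the 4 livers touches, it was -0.38 (SE 0.11, adjusted p = 0.13). The contrast of casein effect minus soy effect on *Pfkfb1* was -0.37 (SE 0.17, adjusted p = 0.17), which did not pass, and -0.54 when Soy-20% stood in as soy control (adjusted p = 0.049). Over the settings that kept every casein and Soy-10% liver the adjusted p of that contrast ran from 0.049 to 0.17, and with 1 liver left out from 0.09 to 0.27.

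*Gckr*, which encodes the nuclear regulator of glucose use, was lower in Soy-10% than in Soy-20% + SAA. Its normalized count was 1019 at the lowest, 1157 at the median and 1362 at the highest in Soy-20% + SAA, and 804.1, 878.4 and 1020 in Soy-10%, so 5 of 6 Soy-10% livers lay below every Soy-20% + SAA liver. The means were 1176 ± 145 (SD, n = 6) and 888.6 ± 72.9 (SD, n = 6), a 1.33-fold difference (log2 fold change -0.41, SE 0.09, adjusted p = 0.0077). Soy-20% livers were at 849.2, 933.5 and 1020, close to Soy-10% (log2 difference -0.07, 95% interval -0.21 to 0.07, adjusted p = 0.73). Soy-20% against Soy-20% + SAA gave -0.33 (SE 0.08, adjusted p = 0.066), which DESeq2 called (adjusted p = 0.011), and -0.14 with livers 1 and 2 alone (adjusted p = 0.80) or -0.15 with the GC slope as a covariate (adjusted p = 0.62). The high values of the supplemented group were those of livers 3 to 6. Soy-20% + SAA livers 1 and 2 were at 1038 and 1019, and with these alone as the control the Soy-10% difference was -0.22 (adjusted p = 0.24), as it was with the GC slope as a covariate (-0.22, adjusted p = 0.16). In the casein livers *Gckr* was 968.5, 1090 and 1121 in Cas-20% and 685.9, 957.5 and 1023 in Cas-5%, and the difference did not pass the test (log2 fold change -0.19, 95% interval -0.37 to -0.01, adjusted p = 0.12). It passed in 1 of the 7 settings that kept all 12 livers, with the GC slope as a covariate, at -0.27 (adjusted p = 0.029). In the others it did not pass, with an adjusted p of at most 0.15. With 1 liver left out it passed in 0 of 12 fits (adjusted p from 0.081 to 0.21).

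*Slc2a2*, the GLUT2 transporter, was lower on casein restriction by a small margin. Cas-20% livers had 3521, 4258 and 4584 normalized counts at the lowest, median and highest, and Cas-5% livers 2920, 3415 and 3942, with 4 of 6 Cas-5% livers below every Cas-20% liver. The means of 3461 ± 412 (SD, n = 6) and 4171 ± 387 (SD, n = 6) differed 1.19-fold (log2 fold change -0.25, SE 0.09, adjusted p = 0.041). This call was lost when 8 of the 12 livers were left out 1 at a time (the log2 fold change then ran from -0.31 to -0.21 and the adjusted p from 0.013 to 0.091), and in 1 fit over all 30 livers (adjusted p = 0.066). On soy, the medians were 3956 in Soy-20% + SAA, 3396 in Soy-20% and 3607 in Soy-10%, with ranges of 3309 to 4350, 2774 to 4243 and 2413 to 3746. None of the soy comparisons of *Slc2a2* passed. Soy-10% differed from Soy-20% + SAA by -0.21 (-0.05 with livers 1 and 2 alone, adjusted p = 0.90), and Soy-10% differed from Soy-20% by -0.01 (95% interval -0.24 to 0.23, adjusted p = 0.99).

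*Mlxipl*, which encodes ChREBP, was lower in Soy-10% than in Soy-20% + SAA and higher in Cas-5% than in Soy-10%. Soy-10% livers had 920.9, 968.9 and 1130 normalized counts at the lowest, median and highest, against 1126, 1285 and 1521 in Soy-20% + SAA, and 5 of 6 Soy-10% livers lay below every supplemented liver. The means were 997.8 ± 82.5 (SD, n = 6) and 1302 ± 152 (SD, n = 6), a 1.31-fold difference (log2 fold change -0.39, SE 0.08, adjusted p = 0.0092). In the casein livers the order was the other way, with 842.8, 975.4 and 1298 in Cas-20% and 1004, 1157 and 1378 in Cas-5%, but the ranges overlapped widely and that difference did not pass (log2 fold change 0.20, 95% interval -0.04 to 0.44, adjusted p = 0.23). The contrast of casein effect minus soy effect on *Mlxipl*, tested in 1 fit over 24 livers, passed (0.58, SE 0.15, adjusted p = 0.018). It did not pass with Soy-20% + SAA livers 1 and 2 alone (0.43, adjusted p = 0.21), with the GC slope as a covariate (0.45, adjusted p = 0.097) or when Soy-20% stood in as soy control (0.38, adjusted p = 0.13), while it kept its sign in all 3. The soy difference itself was -0.24 with livers 1 and 2 alone (adjusted p = 0.22) and -0.21 with the covariate (adjusted p = 0.18). Soy-20% livers lay between the other soy diets at 952.9, 1118 and 1378, and Soy-10% against Soy-20% gave -0.19 (95% interval -0.37 to -0.01, adjusted p = 0.38). Between the restricted diets, which hold no supplemented liver, *Mlxipl* was higher in Cas-5% than in Soy-10% (log2 fold change 0.26, SE 0.08, adjusted p = 0.049, 4 of 6 Cas-5% livers above every Soy-10% liver). That call sat at the threshold and was lost in 9 of 12 fits that left out 1 liver (adjusted p from 0.022 to 0.11).

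*Pklr*, *Khk* and *Pfkl* passed in none of the 8 comparisons. *Pklr*, liver pyruvate kinase, spread more within each diet than any of the other 6 genes, from 812.5 to 1948 normalized counts in Cas-20%, 812.0 to 2094 in Cas-5%, 1152 to 2206 in Soy-20% + SAA, 1139 to 2217 in Soy-20% and 771.6 to 1650 in Soy-10%. The medians were 1257, 1367, 1592, 1431 and 1427 in the same order, and every pair of diets overlapped. Its casein difference was 0.12 with a 95% interval of -0.36 to 0.60 (adjusted p = 0.74), and its difference between Soy-10% and Soy-20% + SAA was -0.28 with an interval of -0.67 to 0.11 (adjusted p = 0.29), so changes of these sizes were not detectable at this spread. The soy difference of *Pklr* was -0.09 with livers 1 and 2 alone and with the GC slope as a covariate (adjusted p = 0.88 in both). *Khk*, ketohexokinase, ran from 2867 to 3941 in Cas-20% (median 3481), 2565 to 4009 in Cas-5% (3133), 2841 to 4828 in Soy-20% + SAA (3484), 2935 to 4469 in Soy-20% (3143) and 2249 to 3684 in Soy-10% (3183). The casein difference of *Khk* was -0.05 (95% interval -0.27 to 0.17, adjusted p = 0.79). Soy-10% was lower than Soy-20% + SAA by a log2 difference of -0.29 at an unadjusted p of 0.049 (adjusted p = 0.14), which became -0.01 with livers 1 and 2 alone (adjusted p = 0.98). *Pfkl*, the liver phosphofructokinase, had the narrowest span, 153.7 to 231.0 over the 30 livers, with medians of 175.9 in Cas-20%, 193.4 in Cas-5%, 206.9 in Soy-20% + SAA, 186.3 in Soy-20% and 176.2 in Soy-10%. Its casein difference was 0.11 (95% interval -0.11 to 0.34, adjusted p = 0.46), and its Soy-10% against Soy-20% + SAA difference was -0.22 with all 6 supplemented livers (adjusted p = 0.13) and 0.02 with livers 1 and 2 alone (adjusted p = 0.95).

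**Figure D1:**
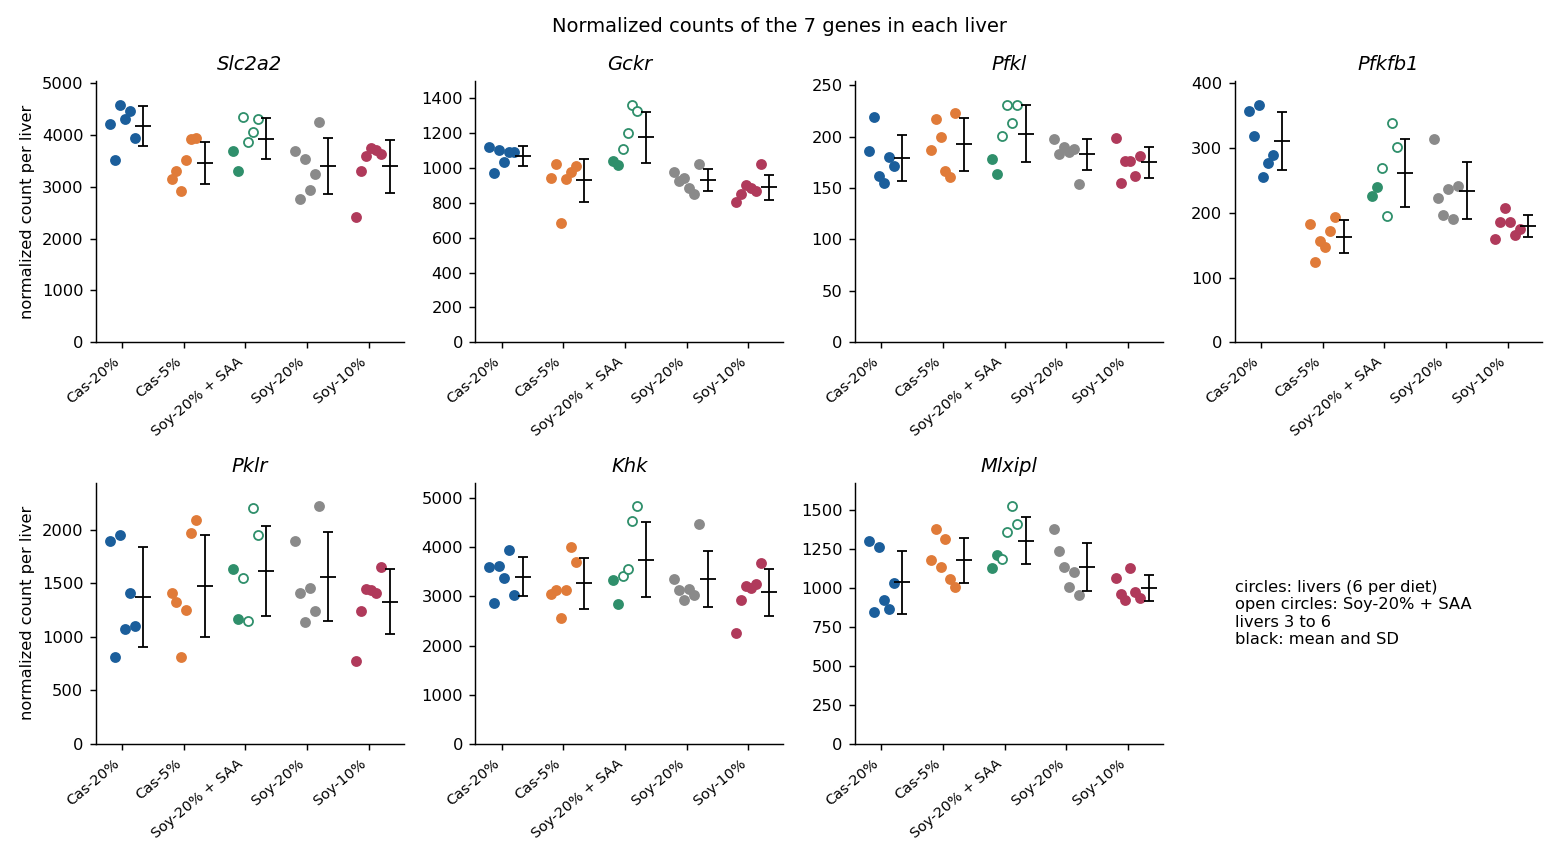
Normalized counts (vertical axes, linear, from 0) of the 7 genes in each liver by diet, with 1 circle per liver, open for Soy-20% + SAA livers 3 to 6, and the mean and SD of the 6 livers in black. For *Pfkfb1* the Cas-5% livers sit between 123.9 and 193.6, all below the Cas-20% livers at 254.8 to 367.1, while *Pklr* spans 771.6 to 2217 with all diets overlapping.

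Ranked by mean, the Soy-20% + SAA diet was highest for *Gckr*, *Pfkl*, *Pklr*, *Khk* and *Mlxipl*, and Cas-20% was highest for *Slc2a2* and *Pfkfb1*. Soy-10% was lowest for 6 of the 7 genes, and Cas-5% was lowest for *Pfkfb1*. These places rested in part on Soy-20% + SAA livers 3 to 6. With livers 1 and 2 alone that diet was highest for 0 of the 7 genes and lowest for *Pfkl*, with means of 1028 for *Gckr*, 171.1 for *Pfkl*, 1402 for *Pklr*, 3088 for *Khk* and 1168 for *Mlxipl*, and Soy-10% was lowest for 5. Neighbours in these orders were mostly not separated. Of the 28 steps from 1 diet to the next, 25 were smaller than the larger of the 2 SDs, and in all 28 the livers' ranges overlapped. The exceptions were the step in *Slc2a2* from Soy-20% + SAA to Cas-5%, in *Gckr* from Cas-20% to Soy-20%, and in *Pfkfb1* from Soy-20% to Soy-10%. Among the other 4 diets 17 of 21 such steps were smaller than the larger SD, and the ranges overlapped in all 21.

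The number of the 7 genes that passed was set beside the share of all genes that did. In Cas-5% against Cas-20%, 2 of the 7 genes passed at an adjusted p of 0.05 (*Pfkfb1* and *Slc2a2*, both lower), beside 24.9% of all genes tested (13.3% lower), and *Pfkfb1* alone did not overlap, beside 12.9% of all genes. In Soy-10% against Soy-20% + SAA, 3 of 7 passed (*Gckr*, *Pfkfb1* and *Mlxipl*, all lower), beside 17.0% (8.47% lower), and none of the 7 was free of overlap, beside 6.22%. The log2 fold change was below 0 for all 7 genes in that comparison, with a median of -0.29 (-0.01 over all genes), and 5 of the 7 had an unadjusted p under 0.05. With livers 1 and 2 alone as the control 0 of 7 passed, the median was -0.09, and *Pfkl* lay above 0. In Soy-10% against Soy-20%, 0 of 7 passed (2 at an unadjusted p under 0.05, and 0 with DESeq2), beside 0.866%, and none was free of overlap, beside 1.34%. Soy-20% against Soy-20% + SAA gave 0 of 7 (1 at an unadjusted p under 0.05, and 1 with DESeq2), beside 0.00838%. Cas-20% against Soy-20% + SAA gave 0 of 7 (1 at an unadjusted p under 0.05, and 0 with DESeq2), beside 2.43%. Cas-5% against Soy-10% gave 1 of 7, beside 10.7%, and the contrast of the 2 restriction effects 1 of 7, beside 8.69%. A test for any difference among the 5 diets passed for 4 of 7 genes, beside 43.4% of all genes. These were *Pfkfb1* (adjusted p = 3.7e-06), *Gckr* (0.0009), *Mlxipl* (0.022) and *Slc2a2* (0.047). Without Soy-20% + SAA livers 3 to 6, *Pfkfb1* (2.3e-06) and *Gckr* (0.046) still passed. Comparisons that share a diet share its livers and are not independent of each other.

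**Figure D2:**
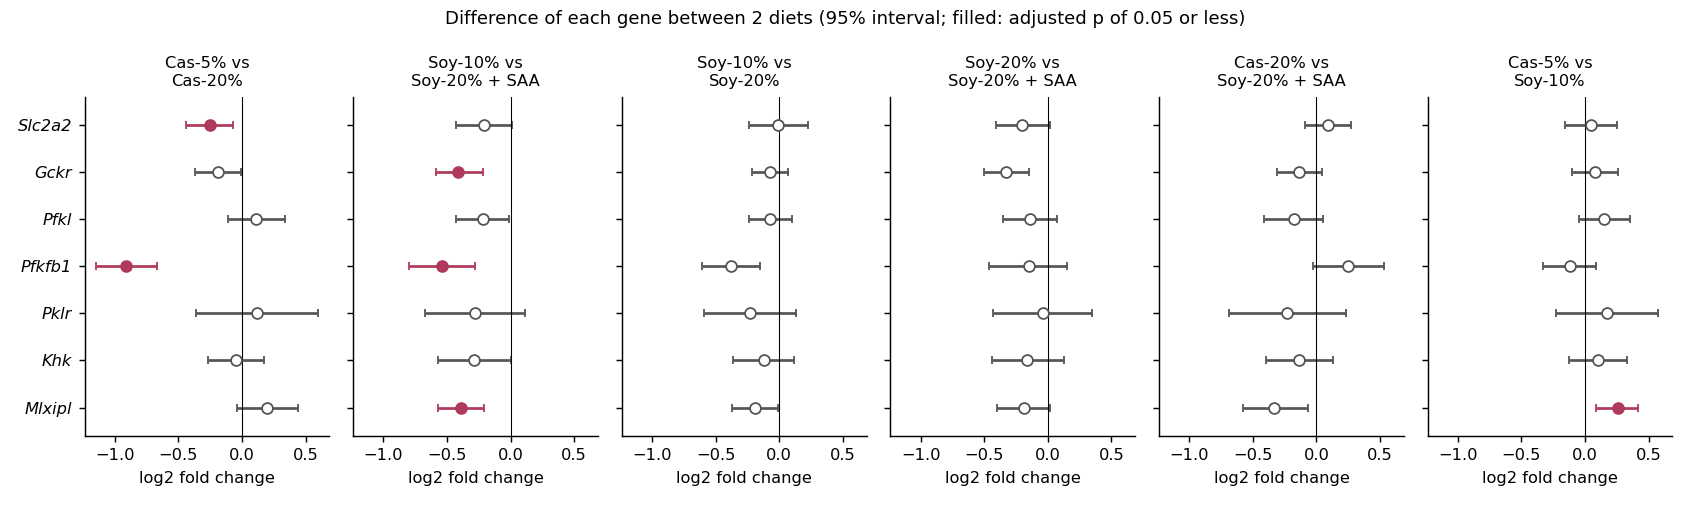
Log2 fold change of each gene (horizontal axis, first diet minus second) in the 6 comparisons of 2 diets, with its 95% interval; filled points had an adjusted p of 0.05 or less. *Pfkfb1* in Cas-5% against Cas-20% stands farthest from 0, at -0.91 (interval -1.15 to -0.67), and the *Pklr* intervals are wide.

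**Figure D3:**
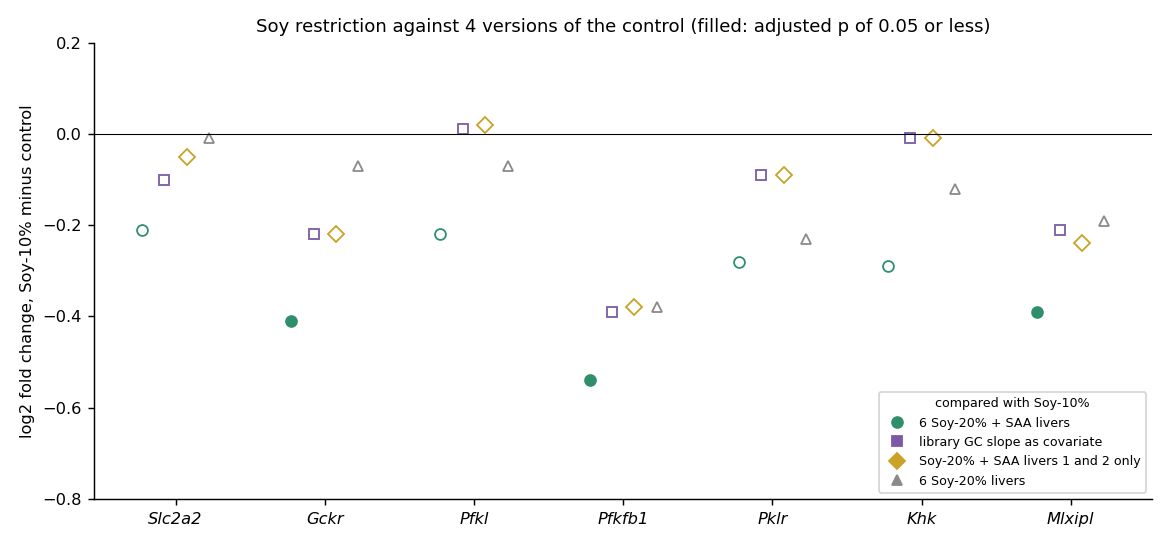
Log2 fold change of Soy-10% (vertical axis) for each gene against the 6 Soy-20% + SAA livers, the same with the library GC slope as a covariate, Soy-20% + SAA livers 1 and 2 only, and the 6 Soy-20% livers; filled points had an adjusted p of 0.05 or less. *Gckr* goes from -0.41 to -0.22, -0.22 and -0.07, and *Pfkfb1* from -0.54 to -0.39, -0.38 and -0.38.

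Diet accounted for unequal shares of the variance of log2 CPM (counts scaled by the size factors) over the 30 livers. This share is not corrected for the number of diets, so it lies above 0 even where diet has no effect. It was 72.4% for *Pfkfb1*, 56.3% for *Gckr*, 38.0% for *Mlxipl*, 34.5% for *Slc2a2*, 19.0% for *Pfkl*, 15.2% for *Khk* and 7.37% for *Pklr*, beside a median of 32.4% over 12033 genes. Over the 26 livers without Soy-20% + SAA livers 3 to 6 the share was 77.6% for *Pfkfb1*, 42.1% for *Gckr*, 23.97% for *Mlxipl*, 32.8% for *Slc2a2*, 12.0% for *Pfkl*, 8.14% for *Khk* and 4.89% for *Pklr*. The mean coefficient of variation within a diet was 28.3% for *Pklr*, against 9.18% to 16.0% for the other 6 genes and a median of 14.3% over all genes. *Pklr* had 760 to 2536 raw counts per library, for which counting error is at most 3.63%. At the lowest count of *Pfkfb1*, 94, that error was 10.3%.

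What varied within the diets was shared among several of the genes. After subtracting each diet's mean, log2 CPM of *Pklr* and *Khk* had a Pearson r of 0.85 over 30 livers (0.89 over the 26 without Soy-20% + SAA livers 3 to 6). The value was 0.81 for *Slc2a2* and *Khk*, 0.79 for *Gckr* and *Khk*, 0.75 for *Slc2a2* and *Pklr*, and 0.73 for *Gckr* and *Pklr*. For these 4 genes the median r with all other genes was -0.02 or -0.01, and the 95th percentile 0.41 to 0.46. *Mlxipl* stood outside this group, with r of 0.18 with *Pklr* and 0.01 with *Khk*, as did *Pfkl*, with -0.18 and -0.08. *Pfkfb1* had 0.63 with *Pklr* and 0.43 with *Khk*. Over the 26 livers, r with *Pklr* and *Khk* was 0.11 and -0.23 for *Mlxipl*, -0.3 and -0.41 for *Pfkl*, and 0.55 and 0.3 for *Pfkfb1*. These points are single livers whose library and depth both genes share, and the correlations are given as descriptions.

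**Figure D4:**
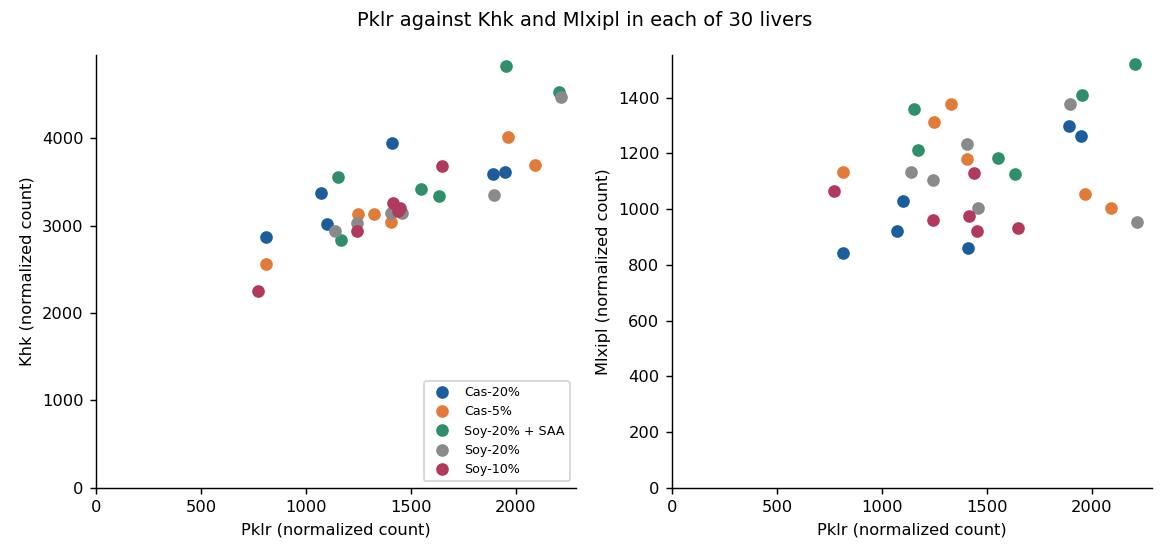
Normalized counts of *Pklr* (horizontal axes) against *Khk* (left) and *Mlxipl* (right), with 1 point per liver coloured by diet. *Khk* rises with *Pklr* (r = 0.85 within diets), and *Mlxipl* shows no such relation (r = 0.18).

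The 2 genes most like each of the 7 over the 30 livers, by r of log2 CPM among 12026 other genes, were as follows, with r over the 26 livers in brackets. Diet means were not subtracted here, so differences between diets enter these r, unlike the r within diets above. *Pfkfb1* ran with *Prodh*, proline dehydrogenase, at 0.91 (0.93) and with *Chrna4*, a nicotinic receptor subunit, at 0.91 (0.90). *Gckr* ran with *Gamt*, which makes creatine, at 0.87 (0.79) and *Cldn2*, a claudin of tight junctions, at 0.85 (0.77). *Pklr* ran with *Me1*, malic enzyme, at 0.82 (0.79) and with *Tkfc*, the triokinase of fructose breakdown, at 0.80 (0.77). *Khk* ran with *Lrrc28* at 0.85 (0.79) and *Smoc1* at 0.84 (0.78). *Slc2a2* ran with *Mpzl2* at 0.82 (0.85) and with *Slc37a4*, the glucose 6-phosphate transporter of the endoplasmic reticulum, at 0.77 (0.76). *Mlxipl* ran with *Egfl7* at 0.74 (0.60) and the kinase *Clk3* at 0.74 (0.74). *Pfkl* ran with *Poc1a*, a gene of few counts, at 0.72 (0.67) and with *Grn*, progranulin, at 0.70 (0.54).

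Around the 7 genes, the other steps of glycolysis did not move as a block on casein restriction. Of 21 other glycolysis genes, 20 were tested, and in Cas-5% against Cas-20% 5 rose and 2 fell (1 fell with no filter on low counts), beside 24.9% of all genes called (13.3% lower), with a median log2 fold change of 0.05 (0.02 over all genes). *Tpi1*, triose phosphate isomerase, fell by 0.42 on the log2 scale (SE 0.06, adjusted p = 0.00012). *Gpi1*, glucose 6-phosphate isomerase, rose by 0.68 (SE 0.12, adjusted p = 0.00054). *Eno3*, the muscle form of enolase, was among the genes of few counts, with a median of 19.84 normalized counts in Cas-20% (18.83 to 25.89) and 38.61 in Cas-5% (28.87 to 54.05). The groups did not overlap, and Cas-5% was 1.92-fold higher (log2 fold change 0.94, SE 0.19, adjusted p = 0.0015). The soy medians of *Eno3* also lay above that of Cas-20%, at 35.16 in Soy-20% + SAA, 28.6 in Soy-20% and 29.59 in Soy-10%. Cas-20% was lower than Soy-20% + SAA with all 6 supplemented livers (log2 fold change -0.74, adjusted p = 0.036). Chosen after their values were seen, the others that rose were *Pfkp* (log2 fold change 0.93), *Pfkfb3* (0.80) and *Aldoa* (0.25), forms or paralogues that are best known from other tissues, and *Pgam1* fell (-0.52). In Soy-10% against Soy-20% + SAA 0 of the 20 passed with edgeR or DESeq2 (2 at an unadjusted p under 0.05 with edgeR). Of all genes 17.0% passed there with edgeR. The median of the 20 was 0.01, and *Eno3* was at -0.25 (adjusted p = 0.29).

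Other genes of fructose breakdown changed little. Of 6 genes 5 were tested, and 1 passed on casein restriction, beside 24.9% of all genes. This was *Slc2a8*, a hexose transporter, which rose by 0.32 (SE 0.11, adjusted p = 0.041), a call lost in 8 of 12 fits that left out 1 liver. In Soy-10% 0 of the 5 passed with edgeR or DESeq2 against either soy control (1 at an unadjusted p under 0.05 against Soy-20% + SAA and 0 against Soy-20%), with medians of -0.11 and -0.05. Of all genes 17.0% and 0.866% passed there with edgeR. *Tkfc*, chosen after its values were seen, was at 0.39 on casein (adjusted p = 0.061) and -0.17 against Soy-20% + SAA (adjusted p = 0.52).

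The list of ChREBP's partners and targets, 20 genes of which all were tested, fell in part. In Cas-5% against Cas-20% 8 fell and 1 rose, beside 24.9% of all genes called (13.3% lower). The median log2 fold change was -0.10, against 0.02 over all genes. In Soy-10% against Soy-20% + SAA 8 fell and 1 rose, beside 17.0% of all genes called (8.47% lower). The median there was -0.28, against -0.01. *Thrsp*, *Fasn* and *Scd1* fell in both comparisons. Chosen after their values were seen, the others that fell were *Acly*, *Acacb*, *Pnpla3*, *Mid1ip1* and *Mlx* on casein and *Acly*, *Acacb*, *Pnpla3*, *Acaca* and *Elovl6* on soy. *Thrsp*, a regulator of lipogenesis, had a log2 fold change of -3.11 on casein (SE 0.36, adjusted p = 7.7e-06) and -2.32 on soy (SE 0.41, adjusted p = 0.003), where it was -1.28 with livers 1 and 2 alone (adjusted p = 0.10) and -1.43 with the GC slope as a covariate (adjusted p = 0.065). *Fasn*, fatty acid synthase, had -1.85 on casein (SE 0.33, adjusted p = 0.0006) and -2.08 on soy (SE 0.31, adjusted p = 0.0011), or -1.38 with livers 1 and 2 alone (adjusted p = 0.017). *Scd1*, stearoyl-CoA desaturase, had -2.13 on casein (SE 0.19, adjusted p = 4.8e-07) and -1.28 on soy (SE 0.28, adjusted p = 0.0092), where it was -1.0 with livers 1 and 2 alone (adjusted p = 0.064) and -0.9 with the covariate (adjusted p = 0.13). *Fgf21*, a hormone that liver releases on protein restriction, rose by 2.56 on casein (SE 0.33, adjusted p = 2.9e-05) and by 2.67 on soy (SE 0.39, adjusted p = 0.00098), where it was 1.92 with livers 1 and 2 alone (adjusted p = 0.069) and 1.76 with the covariate (adjusted p = 0.02). Many of these genes answer to SREBP-1c and other factors as well. *Mlx*, the partner of ChREBP, fell on casein (-0.63, adjusted p = 5.5e-05) and was at 0.32 against Soy-20% + SAA (adjusted p = 0.16), a gene named after its value was seen. Its mean normalized count was 268.5 in Soy-20% + SAA (191.7 to 392.7), 393.6 in Soy-20% and 334.6 in Soy-10%. The mean of Soy-10% thus lay above that of Soy-20% + SAA and below that of Soy-20%. *Txnip*, the thioredoxin-interacting protein gene and also a ChREBP target, was at 0.31 on casein (adjusted p = 0.16) and 0.61 on soy (adjusted p = 0.073), and did not pass, like *Pklr*. The soy count depended on the control. With livers 1 and 2 alone 2 of the 20 passed as lower and none as higher, and with the covariate 1 and 1. Against Soy-20% 1 fell (*Scd1*, -0.93, adjusted p = 0.012) and 1 rose (*Fgf21*, 2.10, adjusted p = 0.004), beside 0.866% of all genes called. With 1 liver left out, 1 to 6 fell there. The direction was less dependent on the control, with 16 of the 20 below 0 against Soy-20% and a median of -0.24. With edgeR 13 of the 20 had an unadjusted p under 0.05 there, beside 1460 of 11897 genes tested. Against Soy-20% + SAA it was 11 of the 20, beside 4064 of 11983.

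Of the 7 genes of the pentose phosphate pathway, which branches from glucose 6-phosphate, 4 fell and none rose in Cas-5%. Of all genes, 13.3% were called lower there, and the median log2 fold change of the 7 was -0.39. The number that fell was 1 with the GC slope as a covariate and 2 to 5 with 1 liver left out. The log2 fold change was -0.39 for *Taldo1*, transaldolase (SE 0.07, adjusted p = 0.00079), -0.51 for *Pgd* (SE 0.16, adjusted p = 0.027), -0.26 for *Pgls* (SE 0.08, adjusted p = 0.03) and, chosen after its value was seen, -0.67 for *G6pdx* (adjusted p = 0.042). The call of *Pgd* was lost with the covariate (adjusted p = 0.062), in 1 fit over 30 livers (0.077) and in 5 of 12 fits that left out 1 liver. That of *Pgls* was lost with the covariate (-0.17, adjusted p = 0.14) and in 4 of the 12. *Pgd*, *Pgls* and *G6pdx* encode the enzymes of the oxidative branch, which makes NADPH. In Soy-10% against Soy-20% + SAA *Pgls* alone fell (log2 fold change -0.24, SE 0.08, adjusted p = 0.042), beside 8.47% of all genes called lower. That call was lost in 9 of 12 fits that left out 1 liver, and *Pgls* was at -0.08 with livers 1 and 2 alone (adjusted p = 0.73).

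**Figure D5:**
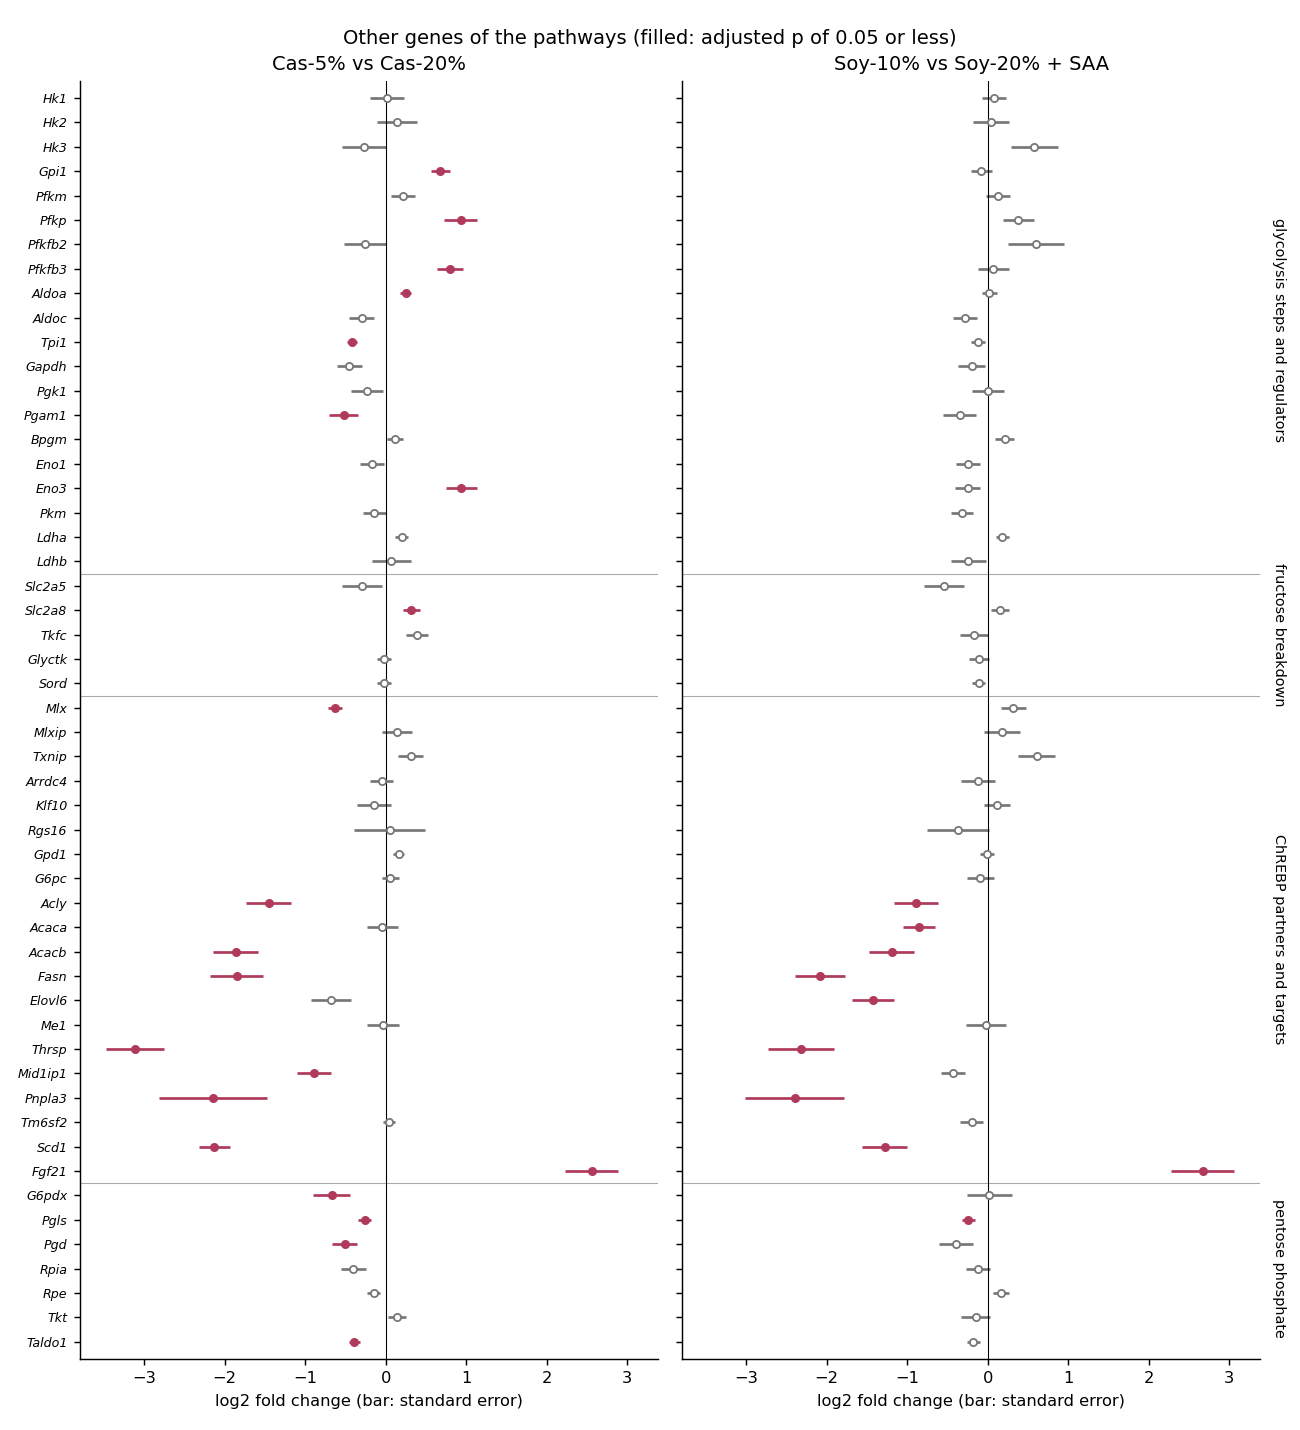
Log2 fold change (horizontal axis, bar 1 SE) of the other tested genes of glycolysis, fructose breakdown, ChREBP's partners and targets and the pentose phosphate pathway, in Cas-5% against Cas-20% (left) and Soy-10% against Soy-20% + SAA (right); filled points had an adjusted p of 0.05 or less. *Thrsp* lies left of 0 and *Fgf21* right of 0 on both sides.

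Markers of other cell types are given beside these results. Of all genes 24.9% were called in Cas-5% against Cas-20% (13.3% lower) and 17.0% in Soy-10% against Soy-20% + SAA (8.47% lower). In Cas-5% against Cas-20%, 2 of 6 stellate and matrix markers rose, with summed levels of 3799 to 5168 against 3273 to 4127 normalized counts, and 4 of 5 red blood cell markers fell, with sums of 11503 to 19812 against 15728 to 34944. Of the 8 hepatocyte markers 2 rose and 3 fell there, 1 of 6 endothelial markers rose, 0 of 7 Kupffer cell and immune markers passed with edgeR (1 at an unadjusted p under 0.05), and 0 of 2 bile duct markers (1 at an unadjusted p under 0.05). In Soy-10% against Soy-20% + SAA, 1 hepatocyte marker fell, 1 Kupffer cell and immune marker rose, 1 bile duct marker fell and no endothelial, stellate or red blood cell marker passed. Of the pancreas, adipocyte and gut and kidney lists, 1, 2 and 1 genes were tested. On casein 1 of each fell (*Cela1*, *Cidec* and *Fabp2*, the last also on soy), and *Fabp2* and *Cidec* are also expressed in hepatocytes. The part of these cells in the differences above was not tested.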

How the data were processed

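Whole liver RNA of 30 mice (5 diets, 6 livers each) was sequenced by the authors with the Lexogen QuantSeq 3′ FWD kit on a NextSeq 500 and processed with Lexogen's QuantSeq pipeline, with builds GRCm38 and mm10 in the submitters' processing notes. The aligner, the counter and the annotation release are not given in the sources used here. The authors deposited raw counts per gene, without normalization, and a normalized signal, which equals the counts divided by 1 size factor per library (DESeq2 1.30 and R 4.0.3 in the submitters' notes). Names were missing for 1718 of 14173 genes, and 1684 of these were filled from GENCODE M21.

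Groups came from the sample labels. Whether the 6 livers of a diet were prepared in separate batches is not stated, so p-values measure the spread between these samples. Counts were tested with edgeR 4.0.16 (R 4.3.3): TMM factors, filterByExpr, the quasi-likelihood F test, two-sided, Benjamini-Hochberg adjustment over all genes tested, threshold 0.05. Each pair of diets was fitted on its own 12 livers, the difference of effects on 24 and the 5-diet test on 30. The 95% intervals are those of these fits. Alternatives were DESeq2 1.42.0, median-of-ratios factors, no filter, 1 fit over 30 livers, each library's slope on the GC content of the last 200 nt as a covariate, the replicate number as a block, leaving out each liver, leaving out Soy-20% + SAA livers 3 to 6, and Soy-20% as the soy control. Log2 CPM used a prior count of 2 and library sizes scaled by the deposited size factors, and correlations and variance shares used genes with a mean of at least 10 counts. This scaling replaced total counts after both had been seen: the genes most like *Slc2a2*, *Pfkl* and *Pklr* changed with it, and the within-diet r of *Pklr* and *Khk* was 0.85 with it and 0.86 with total counts. The test scripts were tested on simulated data.

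The 7 genes and the lists of other genes were chosen with earlier results of these data known, so no list count is independent evidence of its direction. Some genes of these lists are not reported here. All 7 genes were described. From each list up to 3 genes that passed with the smallest adjusted p were named in Cas-5% against Cas-20% and in Soy-10% against Soy-20% + SAA, and for each of the 7 genes the 2 genes with the highest r; any other gene was chosen after its values were seen. Marker genes of fat, pancreas, gut and kidney that were not in the table were not analysed here. No 2 libraries of the same diet agreed within sampling noise. Libraries of different diets were not compared in this way.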

Additional observations from a re-analysis of the deposited data

Results flagged for a closer look

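In 4 of 35 groups of 6 livers (7 genes in 5 diets) 1 liver lay apart from the other 5 by Dixon's criterion at the 95% level, which chance alone gives in about 1 of 20 groups. Soy-10% liver 1 had the lowest *Slc2a2* of its diet, 2413 normalized counts. Cas-5% liver 3 had the lowest *Gckr*, 685.9. Soy-20% liver 6 had the lowest *Pfkl*, 153.7, and the highest *Khk*, 4469. The effect of restriction on *Mlxipl*, the gene of ChREBP, differed between the 2 proteins by 0.58 on the log2 scale (SE 0.15, adjusted p = 0.018 with edgeR), a difference that did not pass without Soy-20% + SAA livers 3 to 6.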

How the results depend on the processing

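*Pfkfb1* in Cas-5% against Cas-20% passed in every setting run and with each liver left out (log2 fold change -0.97 to -0.85). Numbers below are calls among the 7 genes or among all genes, and the cause of a change was not tested. With the replicate block, 1 of the 7 genes passed on casein (*Slc2a2* was lost, adjusted p = 0.06), 1 of 20 other glycolysis genes and 2 of 7 pentose phosphate genes fell on casein (*Pgd* was lost at an adjusted p of 0.068 and *Pgls* at 0.07), 1 glycolysis gene fell in Soy-10% against Soy-20% + SAA, and Cas-20% against Soy-20% + SAA gave 141 genes; same-numbered livers did not vary together (r from -0.19 to 0.2), so the numbers pair nothing. In 1 fit over 30 livers, 1 of 7 passed on casein, 1 in Soy-20% against Soy-20% + SAA, 1 in Cas-20% against Soy-20% + SAA and 0 in Cas-5% against Soy-10%, and the counts over all genes were 3077 (Soy-10% against Soy-20% + SAA), 62 (Soy-10% against Soy-20%), 1793 and 2331. DESeq2 gave 228 genes for Soy-10% against Soy-20%, 885 and 1 of 7 for Soy-20% against Soy-20% + SAA, and 1155 for Cas-20% against Soy-20% + SAA. Median-of-ratios factors and no filter each gave 2 genes for Soy-20% against Soy-20% + SAA and 0 of 7 for Cas-5% against Soy-10%. With the GC slope as a covariate, Soy-10% against Soy-20% + SAA gave 391 genes and 0 of 7, Soy-20% against Soy-20% + SAA 0, Cas-20% against Soy-20% + SAA 5, the difference of effects 564 and 0 of 7, and the 5-diet test 3551 and 1 of 7. Without Soy-20% + SAA livers 3 to 6 these were 317 and 0 of 7, 0, 3, 296 and 0 of 7, and 3433 and 2 of 7.

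Signs turned as follows. With the covariate, *Pklr* on casein was -0.06. In Soy-10% against Soy-20% + SAA *Pfkl* was 0.01, *Tpi1* 0.04, *Gpi1* 0.17 and *Pgd* 0.03, in Soy-20% against Soy-20% + SAA *Pfkl* 0.07, *Pklr* 0.14 and *Khk* 0.11, and in Cas-20% against Soy-20% + SAA *Gckr* 0.02, *Pfkl* 0.03 and *Khk* 0.1. Without livers 3 to 6, *Pfkl* was 0.02, *Gpi1* 0.14 and *Pgd* 0.04 in the first, *Pfkl* 0.09, *Pfkfb1* 0.0, *Pklr* 0.15 and *Khk* 0.11 in the second, *Gckr* 0.05, *Pfkl* 0.06 and *Khk* 0.14 in the third, and *Khk* -0.04 in the difference of effects. With Soy-20% as the soy control, *Gckr* was -0.12 there. None of these values passed in either fit.

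Leaving out 1 liver gave 1 to 2 of 7 on casein (1 without any of Cas-20% livers 1, 3, 4 and 5 or Cas-5% livers 1 to 4), 0 to 1 in Soy-20% against Soy-20% + SAA, 0 to 1 in Cas-5% against Soy-10%, and 2 to 4 in the 5-diet test (2 without Soy-20% + SAA liver 5 or 6). Over all genes the counts were 1219 to 3119 for Soy-10% against Soy-20% + SAA (3119 without Soy-20% + SAA liver 1 and 1219 without liver 5), 50 to 146 for Soy-10% against Soy-20%, 0 to 1587 for Soy-20% against Soy-20% + SAA, 9 to 1817 for Cas-20% against Soy-20% + SAA and 719 to 1941 for the difference of effects. The log2 fold change ran from -0.01 to 0.24 for *Pklr* and -0.11 to 0.01 for *Khk* on casein, from -0.06 to 0.08 for *Slc2a2* and -0.14 to 0.07 for *Eno3* in Soy-10% against Soy-20%, from -0.16 to 0.07 for *Pklr* in Soy-20% against Soy-20% + SAA, from -0.03 to 0.09 for *Slc2a2* in Cas-5% against Soy-10%, and from -0.13 to 0.0 for *Slc2a2* in the difference of effects. At the lowest counts the counting error was 10.3% for *Pfkfb1* and 8.39% for *Pfkl*, beside a mean variation within diets of 15.7% and 11.3%, so depth limits these 2 genes more than the other 5, whose error was at most 3.76%.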
